A study of Mus musculus with 16 samples.

Results

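Glutathione S-transferases (Gst), UDP-glucuronosyltransferases (Ugt) and cytosolic sulfotransferases (Sult) are the main conjugating enzymes of phase II drug metabolism in the liver. The genes described here are every mouse symbol of the deposited table that names a soluble or kappa class Gst (classes a, k, m, o, p, t and z), a Ugt of families 1 to 3, or a numbered Sult. These are 57 of the 20826 symbols in the table: 21 Gst, 19 Ugt and 17 Sult. At least 1 tag was counted for 37 of them over 16 mouse livers, and 20 had none. The 10 genes with 100 or more tags are described singly and the other 47 by family.

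The livers came from male C57BL/6J mice, labelled as 4 weeks old, fed for 18 weeks in 4 groups of 4. Group N received a normal diet with 10% fat, and group NW the same diet plus 1% WEPAK, which is prepared from Pacific krill as an extract soluble in water. Group HF received a diet with 45% fat, and group HFW that diet with 1% WEPAK. No transgene or deletion is given for any group. Transcripts were counted by SuperSAGE, in which the enzyme NlaIII cuts cDNA held by its poly(A) end and a short tag beside the cut is sequenced and assigned to a RefSeq transcript. By this design a transcript gives at most 1 tag. A level here is in counts-per-million (CPM) on trimmed-mean-scaled library sizes and is not divided by transcript length. The library size is the tags of the 1046 genes that passed edgeR's filter on low counts, not all tags of the library. Genes outside those 1046 are divided by the same sizes. The counted tags are not given, so how evenly different genes were captured was not tested.

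Phase II enzymes attach a water-soluble group to a drug, a hormone, bilirubin or a reactive lipid product, after which the conjugate leaves in bile or urine. Gst enzymes use glutathione, Ugt enzymes use UDP-glucuronic acid in the endoplasmic reticulum, and Sult enzymes use the sulfate donor PAPS in the cytosol. Hepatocytes carry most of this activity in liver, and its genes are classical targets of the transcription factors NRF2, AHR, CAR and PXR.

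Depth ranged from 56684 to 149464 tags per library, and 227 to 772 of these fell in the conjugating enzymes. The HF libraries held 91526 to 149464 tags, the N libraries 64781 to 100505, the NW libraries 57684 to 120229 and the HFW libraries 56684 to 101571. All 10 hepatocyte markers examined were present, with a summed level between 14390 and 48640 CPM in each liver. Cps1, Apob, Alb and Cyp2e1 gave 12958, 9293, 7111 and 5494 tags, while the others gave from 26 (Tat) and 65 (Apoa1) to 675 (Hnf4a). All 3 adipocyte markers (Adipoq, Plin1 and Fabp4) had 0 tags. Of 5 cholangiocyte markers Krt19 and Krt7 had 0 tags, and Epcam, Sox9 and Spp1 had 8, 7 and 4, with a sum of up to 105 CPM in 1 HFW liver. Of 4 lymphocyte markers Ptprc and Cd79a had 0 tags, and Ms4a1 and Cd3e had 4 and 1. In whole liver, fewer cells of a type and less RNA per cell cannot be told apart. No separate batch is named in the labels.

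The sequence that stands for each gene in such a library is the tag beside its last NlaIII site. The deposited table lists counts per transcript and no tags, so the tags expected from GENCODE M21 transcripts (GRCm38) that pair with the table's RefSeq identifiers are given for the 10 genes with 100 or more tags. They show which members a count can and cannot separate. Each is written 5′ to 3′ on the transcript's strand, and capitals mark the NlaIII site.
Gsta2: CATGgacaagactaccttgtgggcaa
Gsta3: CATGaatgatggatacagcagggaca
Gstt1: CATGacctcaactataatcactactt
Gstt3: CATGcaagagacggggattgactagt
Gstp1: CATGtgaaccgtcccatcaatggcaa
Gstz1: CATGggctaaaataaaccttctctcc
Ugt1a1: CATGcattatgggtggcaagaccttt
Ugt2b34: CATGtccctttttataaaacagaatg
Ugt2b36: CATGtatagaaacatatgaaaaataa
Sult1a1: CATGcaaaaatagtaagataaactgt

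The expected tag of Gsta2 lies at chr9:78332181-78332206 on the minus strand, in the coding part of exon 6 of 7. The same 26 bases occur in transcripts of Gsta1, Gm10639 and Gm3776, so counts of Gsta2 may include tags from them. The expected tag of Gsta1 itself, beside its last NlaIII site, is a different one, and the table lists 0 tags for Gsta1. The tag of Gstp1, at chr19:4035486-4035511 on the minus strand, is in coding sequence and is shared with Gstp-ps and Gstp2. Of these, Gstp2 is a member and has 1 tag in the table. The tag of Ugt1a1, at chr1:88218805-88218830 on the plus strand, is in the 3′ UTR that the Ugt1a genes have in common, and 8 other genes hold it. In the sources used here, no rule is given for tags with several matches.

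The remaining 7 tags occur in no other gene of GENCODE M21, and all lie in the 3′ UTR. Those of Gsta3 (chr1:21265470-21265495, plus strand), Gstt1 (chr10:75783859-75783884, minus strand) and Gstt3 (chr10:75774357-75774382, minus strand) represent the alpha and theta classes. Those of Gstz1 (chr12:87164693-87164718, plus strand), Sult1a1 (chr7:126672906-126672931, minus strand), Ugt2b34 (chr5:86889842-86889867, minus strand) and Ugt2b36 (chr5:87065947-87065972, minus strand) stand for the zeta class, the sulfotransferases and the Ugt2 family. Of all 57 members, 14 have a last tag that some other gene shares.

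Gst genes gave 4132 of the 7245 member tags (57.03%), Ugt genes 2901 (40.04%) and Sult genes 212 (2.93%). Ugt2b34, a glucuronosyltransferase of the 2B family, had the highest level at 1631 ± 850 CPM (mean ± SD, n = 16 mice). It did not separate from Gsta3, an alpha class Gst, at 1496 ± 420 CPM: Ugt2b34 was above Gsta3 in 7 of 16 livers. Gstt1 of the theta class followed at 872 ± 408 CPM, below Gsta3 in 13 of 16 livers. Gstp1 of the pi class stood at 556 ± 234 CPM and Ugt2b36 at 410 ± 121 CPM, and each was below its upper neighbour in 11 of 16 livers. Ugt2b36 was above the next gene in all 16 livers.

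The lower 5 genes overlapped with their neighbours. Sult1a1, which sulfates small phenols, had 152 ± 51.5 CPM (n = 16) and Ugt1a1, the bilirubin glucuronosyltransferase, 144 ± 54.8 CPM. Gstt3 had 125 ± 79.9 CPM, Gstz1 93.1 ± 57.4 CPM and Gsta2 76.5 ± 60.6 CPM. Each of the upper 4 of these 5 was above the next in 8 to 10 of 16 livers. The spread between livers was smallest for Gsta3, whose highest liver held 2.46 times its lowest, and for Ugt2b36 at 2.74 times. Gstt3 spanned 11.3 times. Gsta2 ran from 0 to 223 CPM, so it has no such ratio.

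**Figure D1:**
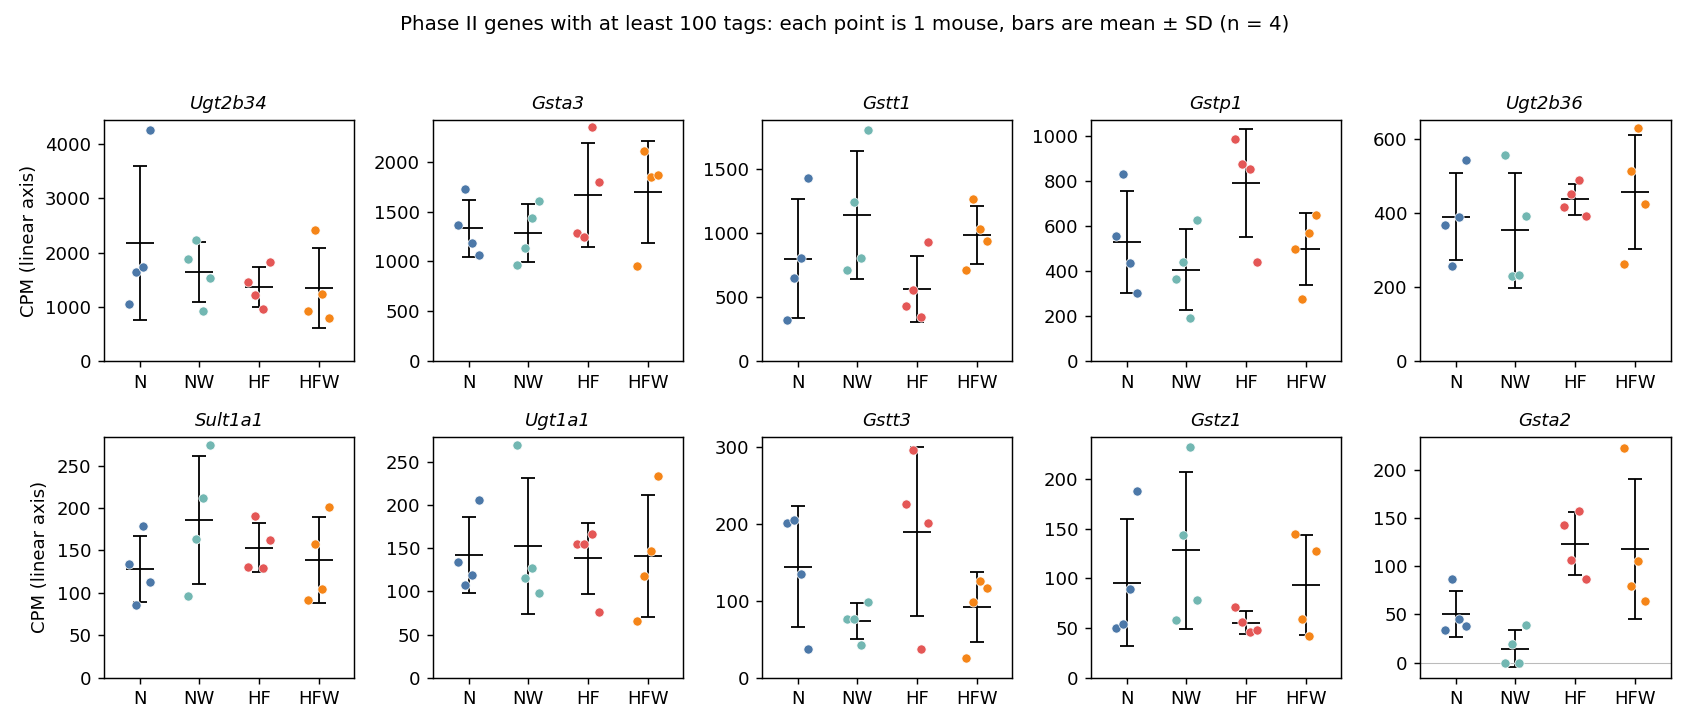
Level of each of the 10 genes with 100 or more tags in each of the 16 livers (CPM on linear axes, by feeding group N, NW, HF and HFW; points are mice, and bars are the mean and SD of 4 mice). Gsta2 sits at 63.7 CPM or more in the HF and HFW livers, above every N and NW liver but N mouse 5, and Gstt3 is lower on average in NW and HFW than in N and HF.

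Gsta2, an alpha class enzyme that conjugates lipid peroxidation products and many electrophilic drugs and is a well-known NRF2 and AHR target, was higher in livers from the high-fat diets. The N livers held 33.6, 86.2, 44.9 and 37.5 CPM in mice 4, 5, 7 and 8, from 15 tags in all. The NW livers held 0, 19.2, 0 and 39.3 CPM in mice 11, 12, 15 and 20, from 4 tags. The HF livers held 143, 106, 157 and 86.2 CPM in mice 23, 25, 28 and 29, from 53 tags. The HFW livers held 223, 79.0, 105 and 63.7 CPM in mice 34, 36, 38 and 40, from 32 tags. All 8 livers from the high-fat diets were above the mean of the matching normal-diet group. N mouse 5 was level with the lowest HF liver and above the HFW livers of mice 36 and 40.

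Averaged over both WEPAK states, the high-fat effect on Gsta2 was a log2 fold change of 1.99 (SE 0.42), or 3.98-fold (edgeR quasi-likelihood test, Benjamini-Hochberg adjusted p = 0.0238 over 1284 genes with 100 or more tags). Gsta2 reached 100 tags only through the high-fat groups, which gave 53 and 32 of its 104 tags, so its place among the 10 members of that fit rests on the groups where it is high. The share of all genes that passed there was 0.701% (0.467% higher), and nothing is read from the members' count of 1. Gsta2 was the only member to pass for the high-fat diet, and it was absent from the 1046 genes left by edgeR's own filter on low counts. In that fit 0 of 8 members passed, against 0.574% of all genes, and 0 of the 8 had an unadjusted p under 0.05, against 20.6%. With no filter, the log2 fold change of Gsta2 by edgeR was 2.08 (adjusted p = 0.00316 over 10171 genes, of which 0.295% passed). Among the genes with 100 or more tags, the DESeq2 Wald test gave 2.07 with an unadjusted p of 8.03e-05 and no adjusted value. Leaving out 1 mouse at a time gave 1.70 to 2.32. These refits kept the genes chosen from all 16 mice, in a fit chosen after seeing the data, so they do not test that choice. The adjusted p missed 0.05 without NW mouse 11 (1.84, adjusted p = 0.0681), NW mouse 15 (1.87, 0.056), HF mouse 23 (1.96, 0.0538) or HFW mouse 34 (1.70, 0.061).

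Within each WEPAK state the difference in Gsta2 had the same sign but did not pass the test. HF minus N was 1.17 (SE 0.49, adjusted p = 0.5) and HFW minus NW was 2.81 (SE 0.67, adjusted p = 0.168) on the log2 scale by edgeR, in tests that called 0.0779% and 0% of the 1284 genes. Leaving out each mouse, with the same genes kept, gave 2.21 to 3.41 for HFW minus NW, with adjusted p from 0.0484 to 0.45. It passed without NW mouse 20 (3.41, adjusted p = 0.0484) and was lowest without HFW mouse 34 (2.21, adjusted p = 0.369). The HFW livers were all above the NW livers, a separation that 8.57% of the 1284 genes showed in either direction. For HF against N the separation, shown by 3.19% of genes, rested on the tie at 86.2 CPM. The difference between these effects was 1.64 (SE 0.88, adjusted p = 0.995).

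WEPAK against its absence gave no pass for Gsta2. NW minus N was -1.69 (SE 0.76, edgeR adjusted p = 0.159) and all 4 NW livers were below the N mean, while HFW minus HF was -0.05 (SE 0.44, adjusted p = 0.957). These tests called 8.64% and 7.87% of the 1284 genes. A count of 0 in NW mice 11 and 15 allows up to 51.5 and 52.0 CPM at 3 tags of the unscaled library. On the smaller base of the levels given here these limits are higher, at 19.25 and 21.15 CPM for each tag. Summed stellate cell markers, all 7 with tags, ranged from 462 to 1210.0 CPM in the N and NW livers and from 618 to 4613 CPM in the HF and HFW livers. Most of their tags were from collagens: Col3a1 gave 1171, Col1a2 346 and Col1a1 207. Reln gave 153, Dcn 61, and Lrat and Des 1 each. The 10 summed hepatocyte markers held 14390 to 27080 CPM in HF and 19090.0 to 38260.0 CPM in N, which overlap. They held 23170 to 29090 CPM in HFW and 29860 to 48640 CPM in NW, which do not. The part of either in the Gsta2 result was not tested.

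Gsta3, the most abundant alpha class gene, did not pass in any comparison. In the same order of mice, here and for the genes that follow, the N livers held 1361, 1723, 1181 and 1069 CPM and the NW livers 962, 1132, 1438 and 1610.0 CPM. The HF livers held 1284, 1243, 2349 and 1800.0 CPM and the HFW livers 957, 2112, 1850.0 and 1870.0 CPM. The highest 5 livers were all on high-fat diets, yet 3 of the 8 high-fat livers fell below the mean of their normal-diet group. The mean high-fat effect was 0.36 on the log2 scale (SE 0.20, edgeR adjusted p = 0.293), with an interval of -0.03 to 0.74. The mean WEPAK effect was -0.02, with an interval of -0.41 to 0.36. Gsta4, which acts on hydroxynonenal, had 11 tags in all, and Gsta1 had 0.

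Gstt3, a theta class Gst, was lower in livers from mice given WEPAK. The N livers held 202, 205, 135 and 37.5 CPM and the NW livers 77.0, 76.8, 42.3 and 98.2 CPM. The HF livers held 226, 297, 37.0 and 201 CPM and the HFW livers 26.2, 98.7, 126 and 117 CPM. All 8 WEPAK livers were below the mean of the group on the same diet without it. The groups overlapped: N mouse 8 (2 tags) was below every NW liver and HF mouse 28 (4 tags) below all but 1 HFW liver.

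The mean WEPAK effect on Gstt3 was -1.04 on the log2 scale (SE 0.38), or 0.487-fold (edgeR adjusted p = 0.0364 over 1046 genes). It was the only member of 8 tested that passed, against 31.3% of all genes tested (15.2% higher and 16.1% lower), so the members' share was not above that of all genes. An unadjusted p under 0.05 was found for 3 of the 8 (Gstt3, Gstt1 and Gstp1), against 42.4% of all genes. NW minus N was -0.99 (SE 0.56, adjusted p = 0.251) and HFW minus HF was -1.08 (SE 0.50, adjusted p = 0.156). The interaction was -0.09 (SE 0.79, adjusted p = 0.997). The call held by DESeq2's Wald test (-1.05, adjusted p = 0.0377). It was lost, with adjusted p between 0.0518 and 0.103 and a log2 fold change between -0.84 and -1.05, on leaving out any 1 of N mice 4, 5 and 7, NW mice 11, 12 and 15, HF mice 23, 25 and 29, or HFW mice 34 and 36. Summed Kupffer cell markers (7 of 8 in the table, with Cd68 at 0 and the other 6 with tags) had medians of 265 CPM in N (209 to 413), 160.1 in NW (116 to 212), 239 in HF livers (95.8 to 346) and 178 in HFW (79.0 to 244). Their part in the Gstt3 result was not tested.

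Gstt1, the theta class enzyme best known for dehalogenating small molecules such as dichloromethane, had the opposite sign and did not pass. The N livers held 319, 646, 807 and 1426 CPM and the NW livers 712, 1238, 804 and 1806 CPM. The HF livers held 428, 551, 342 and 929 CPM and the HFW livers 708, 1263, 1030.0 and 935 CPM. With WEPAK, 7 of 8 livers were above the mean of their diet's group without it. The mean WEPAK effect was 0.66 (SE 0.26, edgeR adjusted p = 0.052, unadjusted p = 0.0166). HFW minus HF was 0.79 (SE 0.37, adjusted p = 0.156) and NW minus N was 0.53 (SE 0.37, adjusted p = 0.367). Without N mouse 8, which had the highest Gstt1 of its group, the mean effect was 0.90 (adjusted p = 0.00483). It also passed without HF mouse 29 (0.83, 0.0146), NW mouse 11 (0.77, 0.0285), HFW mouse 34 (0.75, 0.0301) or NW mouse 15 (0.75, 0.038). It did not pass on leaving out any other mouse, and was lowest without N mouse 4 (0.52, edgeR adjusted p = 0.112).

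**Figure D2:**
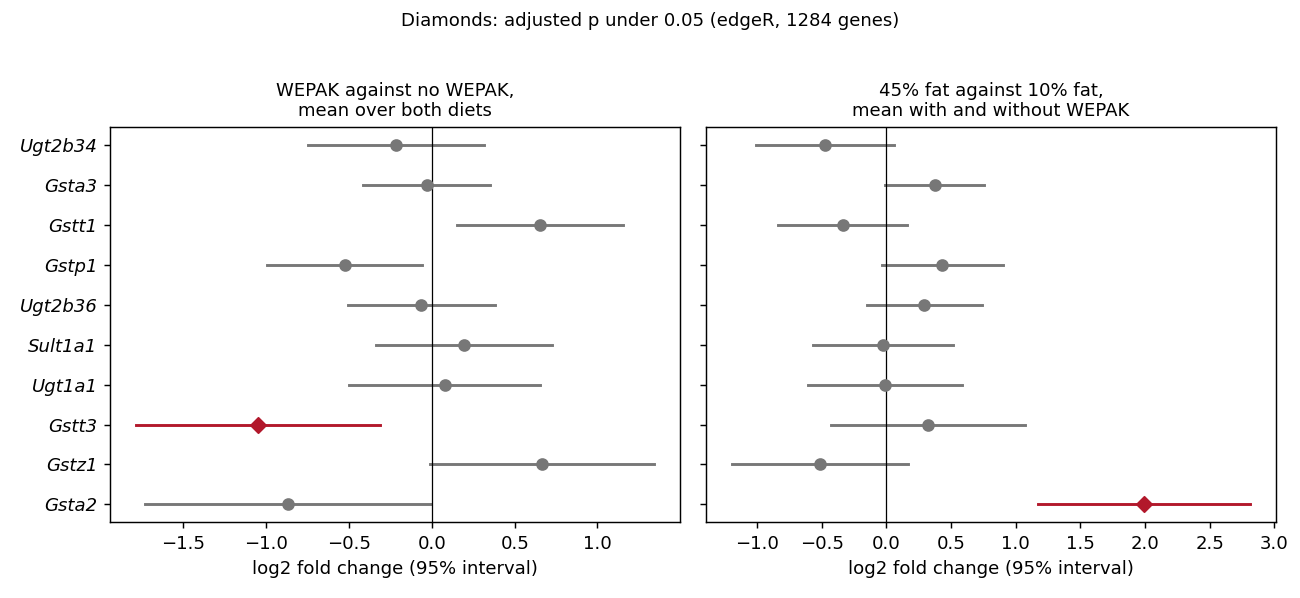
Log2 fold change of each of the 10 genes for the mean high-fat effect and the mean WEPAK effect, from the fit to 1284 genes with 100 or more tags (horizontal axis log2; points are estimates, bars 95% intervals and diamonds genes with an adjusted p under 0.05). Gsta2 lies at 1.99 for the high-fat diet and Gstt3 at -1.05 for WEPAK, and no other of the 10 genes passed in either comparison. Gsta2 is among the 10 only through its tags in HF and HFW. In this fit 0.701% of all genes passed for the high-fat diet and 25.2% for WEPAK.

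The promoters of Gsta2, Gstt1 and Gstt3 are shown because these genes had the lowest adjusted p of the members. Each is the RefSeq sequence (GRCm38.p6) from 250 bases before to 50 bases after the gene's start, written 5′ to 3′ on the gene's strand. Gsta2 is read from chr9:78347096-78347395, Gstt1 from chr10:75797682-75797981 and Gstt3 from chr10:75781373-75781672, all on the minus strand. Capitals mark matches, on either strand, to the antioxidant response element core TGACNNNGC, to GCGTG, the core bound by AHR, and to the TATA box TATAAA.
Gsta2: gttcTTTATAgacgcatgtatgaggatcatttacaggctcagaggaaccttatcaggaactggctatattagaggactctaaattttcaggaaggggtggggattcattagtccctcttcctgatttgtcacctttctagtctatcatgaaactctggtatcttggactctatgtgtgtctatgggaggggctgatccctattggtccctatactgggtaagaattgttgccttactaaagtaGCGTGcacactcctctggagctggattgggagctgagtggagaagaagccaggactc
Gstt1: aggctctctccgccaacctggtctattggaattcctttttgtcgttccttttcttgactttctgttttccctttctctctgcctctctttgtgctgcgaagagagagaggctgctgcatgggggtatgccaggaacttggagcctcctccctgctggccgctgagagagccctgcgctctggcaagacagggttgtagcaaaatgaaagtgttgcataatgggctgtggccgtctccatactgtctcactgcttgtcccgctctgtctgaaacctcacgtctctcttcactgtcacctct
Gstt3: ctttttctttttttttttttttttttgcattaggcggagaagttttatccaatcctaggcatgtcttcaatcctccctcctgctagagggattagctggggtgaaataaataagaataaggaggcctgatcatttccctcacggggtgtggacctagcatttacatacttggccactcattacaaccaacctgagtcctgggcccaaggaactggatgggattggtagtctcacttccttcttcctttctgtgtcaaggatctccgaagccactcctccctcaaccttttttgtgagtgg

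The Gsta2 window held GCGTG beginning 7 bases before the start and TATAAA on the other strand 246 bases before it. Those of Gstt1 and Gstt3, which are neighbours on chromosome 10, held none of the motifs. Among the 10 genes, GCGTG also occurred in Gstp1 and TGACNNNGC only in Gsta3. Over the 50 members with a promoter in the table, TGACNNNGC occurred in 2 (4.0%), against 12.4% of all 32851 promoters. GCGTG occurred in 8 (16%, against 32.4%) and TATAAA in 9 (18.0%, against 13.6%). A match is only a run of letters in this window.

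Gstp1, the pi class enzyme that is abundant in male mouse liver, did not pass. The N livers held 555, 829, 434 and 300.2 CPM and the NW livers 366, 442, 190.4 and 628 CPM. The HF livers held 987, 876, 851 and 440.4 CPM and the HFW livers 498, 276, 568 and 648 CPM. The highest 3 livers were in HF, but HF mouse 29 lay inside the HFW range. The mean WEPAK effect was -0.52 (SE 0.24, edgeR adjusted p = 0.0978, unadjusted p = 0.0381), with 7 of 8 WEPAK livers below the mean of their diet's group. On leaving out 1 mouse it passed only without HF mouse 29 (-0.62, adjusted p = 0.0453). Without N mouse 5 it was -0.37 (edgeR adjusted p = 0.27). The high-fat effect was 0.42 (SE 0.24, adjusted p = 0.318).

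Gstz1, which is maleylacetoacetate isomerase of tyrosine breakdown, ranged from 42.1 to 233 CPM. Its group means were 95.4 ± 64.0 CPM in N, 128 ± 78.7 in NW, 55.5 ± 11.5 in HF livers and 93.2 ± 50.1 in HFW (SD, n = 4 each). In the fit to 1284 genes the mean WEPAK effect was 0.67 (SE 0.35, edgeR adjusted p = 0.153) and the mean high-fat effect -0.51 (SE 0.35, adjusted p = 0.443).

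The mu class genes, whose products are leading Gst proteins of rodent liver, were rare among these tags: 7 symbols gave 101 tags, of which Gstm2 gave 73 and Gstm1 24. Their summed level was 73.9 ± 28.7 CPM in N, 44.5 ± 18.5 in NW, 103 ± 30.5 in HF livers and 69.3 ± 36.4 in HFW (SD, n = 4 each, no test). Gstk1, the mitochondrial and peroxisomal kappa class enzyme, had 10 tags and Gsto1 of the omega class had 3. Summed over all classes, Gst genes stood at 3047 ± 445 CPM in N, 3125 ± 909 in NW, 3508 ± 332 in HF livers and 3573 ± 614 in HFW.

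**Figure D3:**
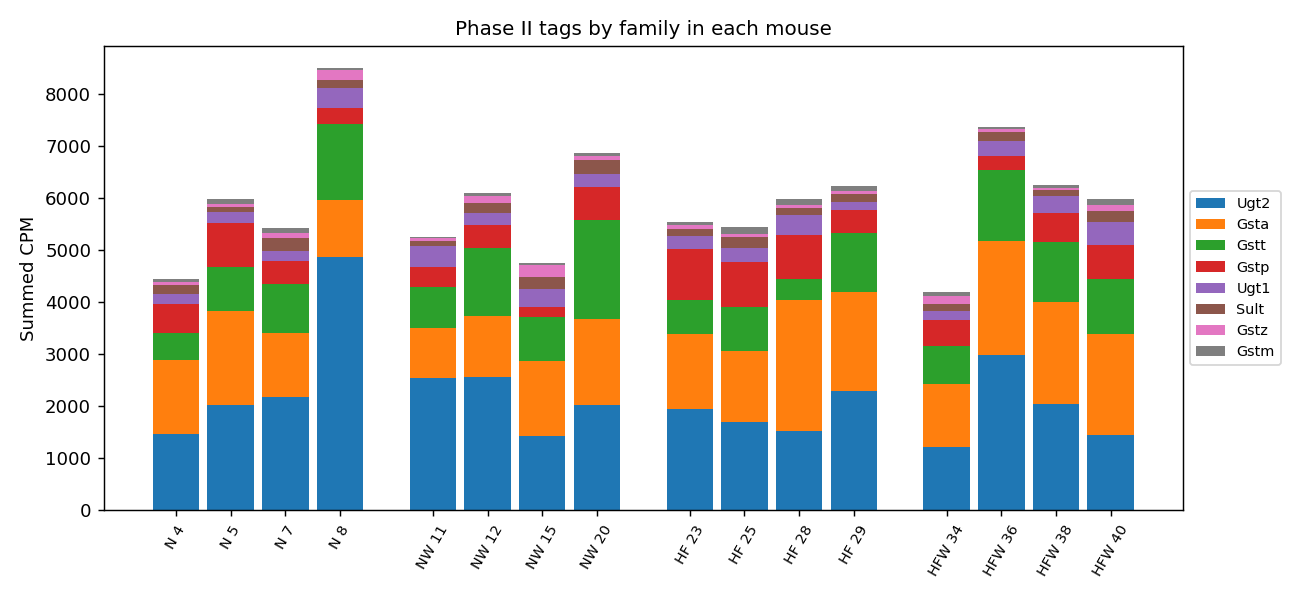
Summed level of each family of conjugating enzymes in each liver (stacked bars, 1 per mouse in the order N, NW, HF and HFW; the vertical axis is CPM summed over a family's genes). Ugt2 and Gsta carry most of the tags, and N mouse 8 has the tallest bar, at 8518 CPM in all, most of it Ugt2.

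Among the Ugt genes, Ugt2b34 carried 1927 of 2901 tags. The N livers held 1059, 1637, 1734 and 4259 CPM and the NW livers 1886, 2236, 931 and 1531 CPM. The HF livers held 1451, 1222, 962 and 1829 CPM and the HFW livers 931, 2408, 1241 and 786 CPM. N mouse 8 stood above all other livers, and the groups overlapped. The mean high-fat effect was -0.49 (SE 0.28, edgeR adjusted p = 0.32) and the mean WEPAK effect -0.21 (SE 0.28, adjusted p = 0.607), so neither passed.

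Ugt2b36 was among the steadiest members, at 390.2 ± 118 CPM in N, 354 ± 156 in NW, 438 ± 42.7 in HF livers and 458 ± 155 in HFW (SD, n = 4 each). Ugt1a1 had nearly equal means of 142 ± 44.3, 152 ± 78.9, 138 ± 41.5 and 141 ± 70.3 CPM in N, NW, HF and HFW. The WEPAK effect on Ugt1a1 was 0.09, with a 95% interval of -0.49 to 0.66. The other Ugt1 genes gave 167 tags, of which Ugt1a6a, which glucuronidates simple phenols, gave 96. The Ugt2 genes below 100 tags summed to 69.7 ± 41.3 CPM in N, 141 ± 89.1 in NW, 65.4 ± 25.9 in HF livers and 122 ± 96.2 in HFW, with overlapping ranges. Ugt3 genes, which use sugar donors other than UDP-glucuronic acid, gave 22 tags.

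Sult genes were few: 4 of 17 had a tag and 13 had none, including Sult1e1 (estrogen sulfotransferase) and every Sult2a symbol (hydroxysteroid and bile acid sulfotransferases). For a gene with 0 tags in all 16 libraries, 3 tags would be 2.18 CPM of the pooled tags of all named genes. That base is larger than the one used for the levels here, and the limit covers counting error only. Sult1a1 gave 188 of the 212 tags, with group means of 128 ± 39.5 CPM in N, 186 ± 75.6 in NW, 153 ± 29.2 in HF livers and 139 ± 50.6 in HFW (SD, n = 4 each). Its mean WEPAK effect was 0.21 (SE 0.27, edgeR adjusted p = 0.603). Sult1d1 had 20 tags.

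In the comparisons between 2 groups no member passed by edgeR. HF minus N called 0 of 8 members against 0.0956% of all 1046 genes, and 0 of the 8 and 103 of all genes (9.85%) had an unadjusted p under 0.05. HFW minus HF called 0 of 8 against 9.85% of genes, with 2 members (Gstt1 and Gstt3) and 299 genes (28.6%) under an unadjusted 0.05. NW minus N called 0 of 8 against 11% of genes, with 0 members and 298 genes (28.5%) under it. HFW minus NW called 0 of 8 members and 0 of all genes (0%), with 0 members and 126 genes (12%) under it. The interaction also called 0 members and 0 genes (0%), with 0 members and 26 genes (2.49%) under it. By DESeq2 the members called were 0 in each of these comparisons. The median log2 fold change of the 8 members was 0.24 for HF minus N (all genes -0.02), -0.01 for HFW minus HF (0.05), -0.10 for NW minus N (-0.03) and 0.11 for HFW minus NW (0.05).

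All phase II members together summed to 6110.0 ± 1729 CPM in N, 5789 ± 945 in NW, 5827 ± 391 in HF livers and 5975 ± 1316 in HFW (SD, n = 4 each). The group means differed by less than the SD within N.

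Of 61 other genes of the pathway, 60 were in the table and 18 were tested. For the mean WEPAK effect 3 were higher and 4 lower by edgeR. The higher genes were Oplah, the 5-oxoprolinase of glutathione salvage (0.85, adjusted p = 0.0172), Nr1i3, which encodes CAR (0.76, 0.0256), and Arsa, a lysosomal sulfatase (0.55, 0.0227). The lower ones included Slc35d1, a carrier of UDP-glucuronic acid into the endoplasmic reticulum (-1.03, 0.00344), Ephx1, microsomal epoxide hydrolase (-1.04, 0.0102), and Gclc, the catalytic subunit that starts glutathione synthesis (-0.61, 0.00982). This share, 7 of 18, stands beside 31.3% of all genes tested.

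For the mean high-fat effect 1 of the 18 passed, Ephx1, at 1.49 (SE 0.30, edgeR adjusted p = 0.0221), higher in 8 of 8 livers, against 0.574% of all genes. An unadjusted p under 0.05, in either direction, was found for 8 of the 18, against 20.6% of all genes. Ephx1 had HF minus N at 1.05 (adjusted p = 0.352) and HFW minus NW at 1.94 (adjusted p = 0.176), neither of which passed. Ephx1 was 1 of 2 genes tested from the list of NRF2 targets. The other, Cat (catalase), had the opposite sign, with a mean high-fat effect of -0.72 (adjusted p = 0.153, unadjusted p = 0.0142) and 1 of 8 livers above the mean of its normal-diet group. Gclc, listed with the glutathione enzymes, had 0.49 (edgeR adjusted p = 0.115, unadjusted p = 0.00878), with 8 of 8 livers above that mean. NW minus N called Ephx1 (-1.48, adjusted p = 0.0496) and Gclc (-0.80, 0.0335) lower, against 11% of all genes. HF minus N, HFW minus NW and the interaction called 0 of the 18 (with an unadjusted p under 0.05 in 4, 5 and 0 of them, against 9.85%, 12% and 2.49% of all genes).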

How the data were processed

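Per the file headers and values, the authors deposited raw tag counts per RefSeq transcript for 16 liver SuperSAGE libraries, with no normalization. Per the labels' protocols, oligo-dT primed cDNA was cut with NlaIII and EcoP15I, and tags were indexed and amplified by PCR without molecular identifiers, so limits cover counting error only. In the sources used here, tag matching, RefSeq release and genome build are not given.

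The 26782 rows were summed per symbol. The 417 rows that name no gene (0.0729% of tags) were left out, and 40 symbols stored as dates were restored. edgeR 4.0.16 (R 4.3.3) fitted a robust quasi-likelihood model with TMM scaling to all 4 groups, after its own filter (minimum count 10) left 1046 genes and 8 members. A fit to the 1284 genes with 100 or more tags, chosen after seeing the data, covered 10 members. Its refits with mice left out kept the genes chosen from all 16 mice. Leaving out N mice 4 and 8 was also chosen after seeing the data. Two-sided p-values were adjusted by Benjamini-Hochberg over all genes of a fit (threshold 0.05). Each SE was derived from the F statistic, so the 95% interval is approximate. Mean effects average a contrast over the other factor, and contrasts share groups.

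Alternatives were DESeq2 1.42.0 (size factors, Wald test), other filters, separate RefSeq rows, the compared groups alone, and each mouse left out in turn. Libraries of a group differed by more than counting noise (chi-square per degree of freedom 2.93 to 15.0).

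The members and the lists of related genes and markers were chosen with earlier results of these data known, and 1 gene of the related list is not reported here. Full values are given for members past the threshold, then those with an unadjusted p under 0.05. Gsta3 and Ugt2b34 were added for their level, and other members with 100 or more tags are given by range or mean.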

Additional observations from a re-analysis of the deposited data

Results flagged for a closer look

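Ugt1a1 in NW mouse 11 was 269.5 CPM, far above the other NW livers, whose highest value was 127 CPM. Ugt1a1 in HF mouse 29 was 76.6 CPM, far below the other HF livers, whose lowest value was 155 CPM. In each case the gap to the nearest liver, divided by the range of the group, was above Dixon's 95% critical value for 4 samples. These were 2 of 40 groups examined, and chance alone gives about 1 in 20.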

How the results depend on the processing

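The members called for HF minus N, NW minus N, HFW minus NW and the interaction were 0 under every alternative to the fit with edgeR's filter. Among genes with 100 or more tags, Gsta2 passed for HFW minus NW without NW mouse 20 (3.41, adjusted p = 0.0484). For HFW minus HF the count was 0, and 0 to 1 on leaving out each mouse; the 1 was Gstt3 without HF mouse 28 (-1.44, adjusted p = 0.028). For the mean WEPAK effect the count was 1. It was 0 with at least 10 tags in each of 12 libraries, where Gstt3 was not among the genes tested, 3 without N mice 4 and 8 (Gstt3, Gstt1 at 0.69 with adjusted p = 0.0378, and Gstp1 at -0.68 with adjusted p = 0.0464, among 267 of 1359 genes), and 0 to 2 on leaving out each mouse. For the mean high-fat effect the count was 0 with edgeR's filter. It was 1 with no filter, 1 with at least 100 tags in total and 1 without N mice 4 and 8 (among 55 of 1359 genes, against 6 of 1046). On leaving out each mouse it was 0 to 1. The 1 was Gsta2 in each case. With all 16 mice, Gsta2 is outside edgeR's filter. It passes a looser count filter only through HF and HFW, where it is high, so calls after such a filter rest on those groups. The refits without mice that called it held 10 or 11 members rather than 8. A count of 0 in other refits can mean that Gsta2 was not tested. With DESeq2 size factors Gsta2 was at 1.99 (adjusted p = 0.0242) among genes with 100 or more tags. No direction reversed for a member called. No paired analysis was possible because every mouse has its own number. Depth limits the rarer members: 1 tag was worth 7.06 to 21.2 CPM, and Gsta2 rests on 104 tags in 16 libraries.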

Other observations

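Within groups, the levels of members were compared across the 16 livers as deviations of log2(CPM + 10) from the group mean, for 28 pairs of the 8 genes tested. Gstt1 and Ugt2b34 had the highest correlation (Pearson's r = 0.72, permutation p = 0.00872, adjusted p = 0.244; Spearman's rho = 0.71, adjusted p = 0.23). Without N mice 4 and 8, the livers farthest from the median of Gstt1, r was 0.51. Ugt1a1 and Ugt2b36 had r = 0.65 (permutation p = 0.0216, adjusted p = 0.302) and rho = 0.60. None of the 28 pairs passed after adjustment, and the values share each library's depth and scaling.

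The Ugt1a genes share their last exons, and the expected tag of Ugt1a1 also occurs in transcripts of 8 other genes. The table nevertheless lists 175 tags for Ugt1a1, 96 for Ugt1a6a, 34 for Ugt1a6b, 23 for Ugt1a5, 9 for Ugt1a2 and 0 for Ugt1a10. None of the NlaIII sites of Ugt1a6a gives a tag that no other gene holds, so the split among the Ugt1a genes is uncertain.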
